A study of Mus musculus with 30 samples.

Results

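Fetal liver and fetal lung of unexposed CD-1 mice were compared at gestation day 18, on 10 arrays out of 30. The arrays were taken by their labels, 5 of liver and 5 of lung, from dams that received the vehicle and 0 mg/kg/day of perfluorooctane sulfonate (PFOS), a persistent fluorinated surfactant. CD-1 is an outbred stock, and the labels name no transgene or mutant allele. The dams were dosed by gavage with 0.5% Tween 20 on gestation days 1 to 17, with the day of the sperm plug counted as day 0. The other 20 arrays hold liver and lung from dams given 5 or 10 mg/kg/day, 5 arrays for each tissue and dose. RNA of 3 fetuses of a litter was pooled, so each array stands for 1 litter and no value belongs to a single fetus. Only a portion of each organ was used, and RNA was kept where its integrity number was at least 8.0. The design text counts 30 dams, but the labels do not say whether a liver array and a lung array with the same number came from 1 litter, nor which sexes were pooled. Litters are therefore named here by their array numbers within a tissue.

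In the last days of gestation the mouse liver is still a blood-forming organ. Red cell precursors, young granulocytes and megakaryocytes sit between hepatocytes that are starting the secretory and metabolic work of the adult liver. The lung at this stage is fluid-filled: its distal tubules are widening into sacs, type 2 cells begin to make surfactant, type 1 cells flatten for gas exchange, and the mesenchyme lays down elastin and collagen. In RNA from whole pieces of tissue, fewer cells of a type and less RNA per cell cannot be told apart.

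Levels are the deposited log2 intensities of an Affymetrix mouse 430_2 array, on which a difference of 1 is 2-fold and a difference of 3 is 8-fold. Each gene was read from the brightest of its probe sets, by the mean of the 30 arrays, and levels of different genes are not compared. Of 18193 genes, 13303 were bright enough to test. Arrays of the same tissue correlated at 0.9903 to 0.9921 in liver and at 0.9895 to 0.9942 in lung over all probe sets. A liver array and a lung array correlated at 0.8669 to 0.8833. A gene was called where limma gave a Benjamini-Hochberg adjusted p under 0.05 and the means differed at least 2-fold. The brightest probe set of a liver array read between 13.82 and 13.87, so levels close to that are near the top of the scale and their differences are understated. The 16 housekeeping genes had a median difference of 0.02. Limma called 0 of them by the full rule, while 6 passed the adjusted p alone with liver higher and 7 with lung higher.

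By that rule 1989 genes (15.0% of those tested) were higher in liver and 2227 (16.7%) were higher in lung. The median called gene differed 3.48-fold in the liver direction and 3.39-fold in the lung direction. Differences of at least 8-fold were found for 455 genes (3.42%) in the liver direction and for 347 (2.61%) in the lung direction. The far end of the scale was more crowded on the liver side: 143 genes were at least 32-fold higher in liver, against 56 in lung. On the 40th-percentile cut used for testing, 397 genes lay above it on all 5 liver arrays and on 0 lung arrays, and 324 showed the reverse. The adjusted p alone passed for 10844 genes (81.5%), which is why the size rule carries the description. The share of genes without any overlap between the tissues was 34.6% with liver higher and 35.9% with lung higher. The median difference over all genes tested was 0.01. Each gene named below as higher in one tissue passed both parts of the rule, with an adjusted p of at most 0.0383 (limma) and an SE of at most 1.2.

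**Figure D1:**
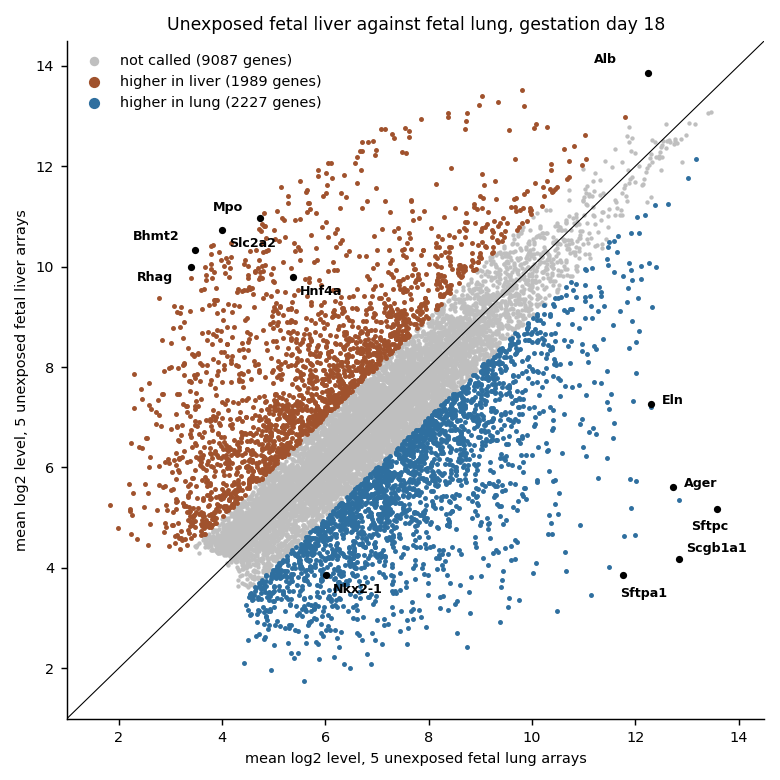
Mean log2 level in the 5 unexposed lung arrays (horizontal axis) against the 5 unexposed liver arrays (vertical axis) for 13303 genes, 1 point per gene, with the 1989 genes called higher in liver and the 2227 called higher in lung in colour. Labelled genes are examples in each direction, not all with large differences. Bhmt2, Slc2a2 and Rhag sit far above the diagonal and Scgb1a1, Sftpc and Sftpa1 far below it, while Alb and Nkx2-1 lie closer to it.

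Of the genes with the largest differences in the liver direction, most were hepatocyte enzymes and carriers, and a few belonged to blood cells. Bhmt2, which moves methyl groups to homocysteine, read 10.15, 10.45, 10.35, 10.33 and 10.35 in liver and 4.08, 3.17, 3.11, 3.74 and 3.26 in lung, a difference of 6.85 (SE 0.17, adjusted p = 2.44e-12, limma). Slc2a2, the glucose carrier of the hepatocyte membrane, was 6.72 higher in liver, and Slc10a1, the bile salt uptake carrier, was 6.19 higher. Every liver litter stood far above every lung litter for these 3 genes. The oxidases Hao1 and Hao2 differed by 6.45 and 6.63, the fatty acid elongase Elovl2 by 6.35, the pyrimidine-degrading enzyme Dpys by 6.34 and the lipid droplet protein Hsd17b13 by 6.59. Hsd17b2, a steroid dehydrogenase, differed by 6.16, and the glucuronidating enzymes Ugt2b34 and Ugt2b5 by 6.30 and 6.15. The blood genes among the 20 largest differences in the liver direction were Rhag (red cell membrane), Hemgn (erythroid nucleus) and Mpo (granules of neutrophils), at 6.59, 6.27 and 6.23.

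The largest differences in the lung direction were secretory products. Scgb1a1, the secretoglobin of airway club cells, read 12.94, 12.67, 12.90, 12.79 and 12.89 in the lung litters and 4.60, 3.93, 3.94, 5.10 and 3.27 in the liver litters. It was 8.67 higher in lung (SE 0.26, adjusted p = 1.44e-11). Sftpc, the surfactant protein made by type 2 cells, read 13.53, 13.56, 13.59, 13.60 and 13.60 in lung and 6.27, 5.35, 4.88, 4.93 and 4.45 in liver. Its lung values lie near the top of the scale and within 0.07 of each other, while liver litter 1 was the highest of the liver litters. Sftpa1, a surfactant collectin, was 7.91 higher in lung. Other genes also stood at this end of the list. The sodium channel gene Scn7a was 7.68 higher in lung, the secreted Ndnf 7.34 and the microfibril protein Mfap4 6.29. The transcription factors Tbx4 and Irx3 were 6.31 and 6.17 higher. Scn7a had the smallest standard error of the 20, at 0.086.

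**Figure D2:**
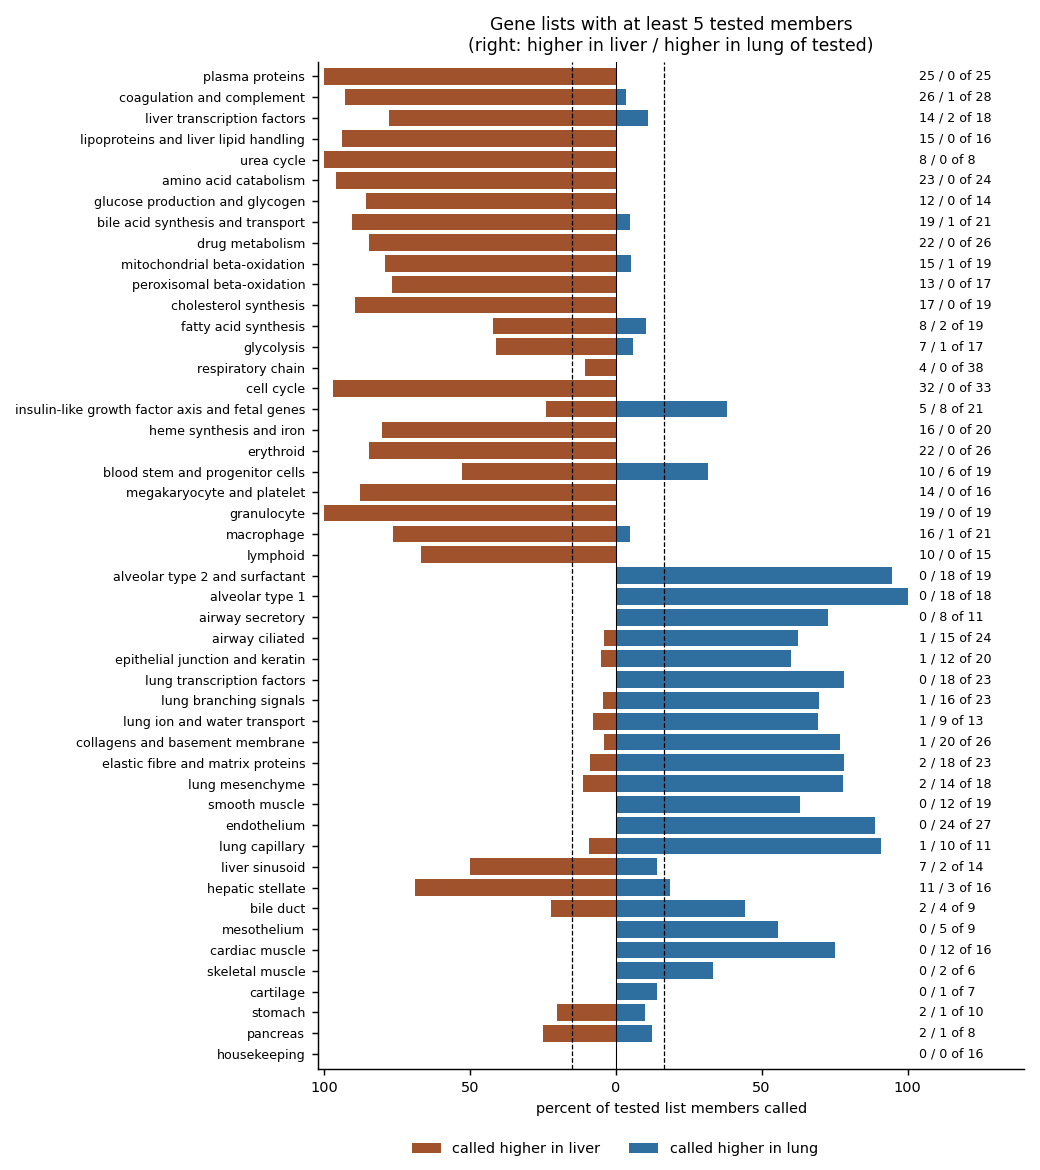
Share of the tested members of each gene list that were called higher in liver (left of 0) or higher in lung (right of 0), 1 bar pair per list with at least 5 tested members, with the number called and tested printed at the side. Dashed lines mark the shares among all 13303 genes, 15.0% and 16.7%.

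Genes known for each organ were read first, from lists chosen with earlier results of these data known, so they are no independent check of the labels. All 25 plasma protein genes measured were called higher in liver, beside 15.0% of all genes tested, and their median difference was 4.61. Albumin (Alb) read 13.85, 13.85, 13.82, 13.87 and 13.86 in liver and 13.11, 11.70, 11.87, 12.46 and 12.09 in lung. Its difference of 1.60 was the smallest of the list, and its liver values sit at the top of the scale. Transthyretin (Ttr), which carries thyroid hormone and retinol-binding protein, read 13.44, 13.46, 13.48, 13.56 and 13.64 in liver and 10.34, 9.26, 9.20, 10.42 and 9.79 in lung. Apolipoprotein A1 (Apoa1), the main protein of high-density lipoprotein, read 13.39, 13.45, 13.41, 13.44 and 13.35 in liver and 10.38, 8.04, 8.70, 9.57 and 8.51 in lung. For these genes the liver litters were tightly grouped and the lung litters were spread over 1.41 for Alb, 1.22 for Ttr and 2.34 for Apoa1. Alpha-fetoprotein (Afp), the albumin-like protein of the fetus, differed by 2.73, with lung litter 1 the lowest at 8.29 and lung litter 4 the highest at 11.20. The protease inhibitors of the inter-alpha-trypsin family, Itih2 and Itih3, both differed by 5.64. Fetub, a fetuin, differed by 5.98 and Apob, the structural protein of very low density lipoprotein, by 6.14. Serpina6, the carrier of corticosteroids, and Orm1, an acute phase protein, were the 2 of the 25 whose tissues overlapped, in each case through lung litter 1. Serpina6 passed at an adjusted p of 0.0383, and leaving out any litter other than liver litter 3 or lung litter 1 ended its call (adjusted p from 0.0549 to 0.0965), as did a trended and robust variance (adjusted p = 0.0906, limma). With liver litters 1 and 4 alone Orm1 was not called (adjusted p = 0.152, limma).

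The clotting and complement genes showed the same separation. Of 28 tested, 26 were higher in liver, 1 was higher in lung, and the median difference was 5.38, the highest of all lists. F13b, a subunit of clotting factor XIII, read 10.33, 10.39, 10.49, 10.54 and 10.37 in liver and 4.38, 3.43, 3.36, 4.43 and 3.52 in lung, a difference of 6.60 (SE 0.2, adjusted p = 1.60e-11). F11, F12, F9, F2 and F10 differed by 6.28, 5.98, 5.72, 5.49 and 5.45, and the anticoagulant protease Proc by 5.81. F7, which starts clotting together with tissue factor, showed a smaller difference of 2.63. The exception was C6, a component of the membrane attack complex, at 5.0 to 5.64 in liver and 6.93 to 7.73 in lung, 1.88 higher in lung. Within the liver group, C1s1 and C1ra, the paired proteases of the first complement component, were lower in liver litters 4 and 5. C1s1 read 9.82, 9.91, 9.89, 8.77 and 8.83 across the liver litters and C1ra read 8.23, 8.41, 8.47, 7.38 and 7.19.

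Stretches of sequence before the start of some of these genes hold letters that hepatocyte factors are known to bind. The first 4 stretches below are the 100 bases before the RefSeq start of genes higher in liver, and they are shown because each holds the HNF1 letters GTTAATNAT on one strand or the other. The next 3 belong to red cell genes and hold the GATA letters AGATAA, and then come a cholesterol enzyme and a cell cycle gene with CCAAT letters. The last is a surfactant gene, 120 bases, with the NKX2-1 letters CTCAAG. Capitals mark only the letters for which a stretch is shown, so letters of the other motifs can stand in it in lower case. Each stretch runs 5′ to 3′ on the strand of the gene, with coordinates in GRCm38.p6. The genes were picked after the matches were seen.
Alb (chr5:90460770-90460869, plus strand): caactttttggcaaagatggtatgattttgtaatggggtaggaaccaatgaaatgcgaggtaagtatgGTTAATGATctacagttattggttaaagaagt
F13b (chr1:139501607-139501706, plus strand): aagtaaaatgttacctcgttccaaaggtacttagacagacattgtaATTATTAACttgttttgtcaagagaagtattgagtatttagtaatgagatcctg
Fga (chr3:83026053-83026152, plus strand): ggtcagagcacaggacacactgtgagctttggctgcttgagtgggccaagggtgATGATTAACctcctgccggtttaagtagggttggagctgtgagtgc
Igfbp1 (chr11:7197687-7197786, plus strand): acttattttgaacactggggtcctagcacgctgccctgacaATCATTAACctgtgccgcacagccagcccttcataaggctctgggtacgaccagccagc
Kel (chr6:41704326-41704425, minus strand): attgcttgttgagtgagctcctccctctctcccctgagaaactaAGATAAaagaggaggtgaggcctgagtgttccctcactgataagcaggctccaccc
Epor (chr9:21963577-21963676, minus strand): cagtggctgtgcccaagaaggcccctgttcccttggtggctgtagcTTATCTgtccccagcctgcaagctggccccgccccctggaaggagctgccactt
Rhd (chr4:134864436-134864535, plus strand): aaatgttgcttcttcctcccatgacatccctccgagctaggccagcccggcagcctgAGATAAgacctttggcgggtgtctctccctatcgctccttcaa
Lss (chr10:76531505-76531604, plus strand): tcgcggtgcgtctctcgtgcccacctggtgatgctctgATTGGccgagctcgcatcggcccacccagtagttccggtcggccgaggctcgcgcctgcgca
Cdc20 (chr4:118437344-118437443, minus strand): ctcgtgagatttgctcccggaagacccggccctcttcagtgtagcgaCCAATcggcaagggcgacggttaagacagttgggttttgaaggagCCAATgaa
Sftpb (chr6:72304490-72304609, plus strand): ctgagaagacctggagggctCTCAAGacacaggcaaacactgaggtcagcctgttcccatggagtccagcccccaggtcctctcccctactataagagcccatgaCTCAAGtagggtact

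Counted from the start, the HNF1 letters lie at -32 to -24 in Alb, at -54 to -46 in F13b, at -46 to -38 in Fga (a fibrinogen chain) and at -59 to -51 in Igfbp1. Across windows of 250 bases, both strands searched, the HNF1 letters were in 17 of the 370 genes at least 8-fold higher in liver that had a window (4.59%). Among all genes tested the share was 0.494% (53 of 10721). The plasma protein genes held them in 4 of 21 windows. The C/EBP letters TTGCNNAA were in 17.6% of the windows of those 370 genes against 7.48% of all genes tested, the HNF4 letters AGGNCAAAG in 5.14% against 1.56%, and the FOXA letters TGTTTAC in 5.68% against 2.29%. The TATA letters TATAAA were in 18.6% against 7.05%, and the GATA letters in 16.2% against 6.30%. CCAAT letters showed little difference, at 38.9% against 35.9%. Only 259 of the 347 genes at least 8-fold higher in lung had a window, too few for a share to be read. These shares describe letters, and whether a factor binds there was not measured.

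The factors themselves were mostly higher in liver. Of 18 tested liver transcription factors, 14 were higher in liver and 2 in lung, with a median difference of 2.61. Hnf4a, a nuclear receptor central to hepatocyte identity, read 9.67, 9.76, 9.77, 10.02 and 9.78 in liver and 5.49, 5.21, 5.23, 5.39 and 5.56 in lung. Its difference was 4.42 (SE 0.089, adjusted p = 6.67e-13). Foxa3 differed by 4.79, Onecut2 by 4.13, Onecut1 by 3.64 and Ppara, the receptor that drives fatty acid oxidation genes, by 4.18. Shared endoderm factors did not follow the pattern. Cebpa read 9.69 to 10.19 in liver and 9.13 to 9.37 in lung and was below the size rule. Foxa1 was 2.42 higher in lung, and Foxa2 overlapped, at 7.62 to 8.03 in liver and 7.69 to 7.97 in lung. Tbx3, a repressor known from early liver bud growth, was 2.77 higher in lung.

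Genes of ammonia disposal and amino acid breakdown were higher in liver. All 8 urea cycle genes were called higher in liver, with a median difference of 3.74. Cps1, which makes carbamoyl phosphate from ammonia, read 12.12, 12.09, 12.40, 12.22 and 12.34 in liver and 7.64, 6.21, 6.77, 7.28 and 6.91 in lung. Otc, the next enzyme of the cycle, read 9.72, 9.98, 9.87, 9.47 and 9.82 in liver and 5.03, 3.18, 2.31, 3.39 and 3.04 in lung. Lung litter 1 was the highest lung litter for both genes, at 7.64 and 5.03. Arg1, the arginase that releases urea, differed by 4.59 and Asl by 2.94. Ass1, which joins citrulline and aspartate, differed least, by 1.24, with liver at 6.03 to 6.76. Of 24 amino acid catabolism genes, 23 were higher in liver, with a median difference of 4.05. Hpd and Hgd, successive enzymes of tyrosine breakdown, differed by 5.95 and 5.26, Mat1a, which makes S-adenosylmethionine, by 5.44 and Bhmt by 5.23. Tat, the first enzyme of tyrosine breakdown and one that is known to climb around birth, differed by 3.19, with liver values from 7.58 to 8.24.

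Glucose output, glycogen and bile acid genes were also set apart. Of 14 glucose and glycogen genes, 12 were higher in liver, with a median difference of 3.50. G6pc, which frees glucose for export, read 9.98, 10.03, 10.25, 10.61 and 9.75 in liver and 4.16, 3.85, 3.73, 4.80 and 3.34 in lung. Pck1, the enzyme that commits carbon to glucose synthesis, read 8.20, 8.57, 9.04, 9.59 and 7.71 in liver and 5.18, 3.53, 3.54, 3.82 and 3.39 in lung. Fbp1 differed by 5.76, Pcx by 3.15 and the liver glycogen synthase Gys2 by 5.89. Of 21 bile acid genes, 19 were higher in liver and 1 in lung, with a median difference of 3.95. Cyp7a1, which sets the pace of bile acid production, read 9.52, 9.55, 10.01, 10.40 and 9.41 in liver and 4.54 to 4.97 in lung. Cyp8b1 differed by 5.27, the canalicular bile salt pump Abcb11 by 5.43, the uptake carrier Slco1b2 by 6.04 and the bile acid ligase Slc27a5 by 5.66. Cyp7b1, of the alternative pathway, was the member higher in lung, by 1.96.

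The liver litters were not alike in these genes. Pck1, G6pc and Cyp7a1 put the 5 liver litters in the same order, from litter 5 up through litters 1, 2 and 3 to litter 4. Pck1 spanned 7.71 to 9.59, almost 4-fold. Some fatty acid synthesis genes showed the extremes the other way round. Thrsp, a lipogenic response gene, read 6.80, 7.15, 6.97, 6.48 and 8.30 in the liver litters, with litter 4 the lowest and litter 5 the highest. Fasn read 9.05, 8.93, 8.81, 8.44 and 9.08, Scd1 9.54, 9.67, 9.97, 9.11 and 10.04 and Acacb 6.95, 6.97, 7.23, 6.52 and 7.41, again with litter 4 the lowest and litter 5 the highest. These orders were noticed in the values, they are a description over 5 litters, and their cause was not tested.

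Xenobiotic enzymes were uneven. Of 26 tested drug metabolism genes, 22 were higher in liver, with a median difference of 4.18. Cyp2e1, which oxidises ethanol and small solvents, read 12.05 to 12.39 in liver and 6.91 to 8.41 in lung. Cyp3a11, the broad-range hepatic oxidase, read 11.20, 11.24, 11.19, 11.81 and 11.89 in liver and 8.44, 5.45, 5.07, 6.53 and 5.99 in lung, where litter 1 stood highest. Cyp2d26 differed by 6.45 and Cyp4a14, a fatty acid hydroxylase, by 6.04. Cyp1a2 and Cyp2c29, also known for adult liver, were not among the 22. Cyp1a2 read 3.92 to 4.72 in liver and 4.78, 3.42, 3.4, 2.78 and 3.29 in lung. It was above the testing cut on too few arrays to be tested. Cyp2c29 read 4.11, 5.95, 5.99, 6.18 and 6.11 in liver. In lung, Cyp2c29 read 8.84, 3.54, 3.84, 4.12 and 3.54, so the highest of the 10 values was in a lung litter.

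Lipid handling divided by pathway. Of 16 lipoprotein and lipid transport genes, 15 were higher in liver, with a median difference of 4.80. Slc27a2, a fatty acid carrier, differed by 5.98, Apoc2, the activator of lipoprotein lipase, by 5.86, Apoc4 by 5.60 and Fabp1, the liver fatty acid binding protein, by 5.60. Mttp, which loads lipid onto apolipoprotein B, differed by 3.93. For oxidation in mitochondria, 15 of 19 genes were higher in liver and 1 in lung, but the median difference was only 1.56. Acadm, the medium-chain dehydrogenase, read 11.10, 11.22, 11.12, 11.24 and 11.06 in liver and 8.78, 8.98, 8.96, 8.92 and 9.01 in lung. Acot2, a thioesterase that cuts acyl-CoA, was the one higher in lung, by 1.32. Of 17 peroxisomal genes 13 were higher in liver, with a median difference of 2.13. Acaa1b, Ehhadh and Hacl1 differed by 5.21, 4.57 and 4.53. Of the ketone genes measured, Bdh1, which makes hydroxybutyrate, was 5.72 higher in liver, and Oxct1, which lets tissues burn ketones, was 1.45 higher in lung.

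Sterol synthesis genes were higher in liver almost throughout, and fatty acid synthesis genes were divided. Of 19 cholesterol synthesis genes, 17 were higher in liver and 0 in lung, with a median difference of 2.41. Lss, which closes the sterol ring, read 9.34, 9.26, 9.30, 8.97 and 9.34 in liver and 5.79, 5.60, 5.56, 5.86 and 5.80 in lung. Tm7sf2 differed by 4.15, Hsd17b7 by 3.17, Dhcr7 by 3.12 and Hmgcs1, at the entry of the pathway, by 1.43. Mvk was below the size rule, at a difference of 0.59. CCAAT letters were in 15 of the 16 windows of cholesterol genes (93.8%), against 35.9% of all genes tested, and the Lss stretch above holds them at -62 to -58. For fatty acid synthesis, 8 of 19 genes were higher in liver and 2 in lung, beside 15.0% and 16.7% among all genes tested, with a median difference of 0.39. The synthase Fasn read 9.93, 9.97, 9.68, 9.96 and 10.02 in lung, 1.05 above liver, and the desaturase Scd1 read 10.999, 10.92, 10.70, 10.69 and 10.93 in lung, 1.18 above liver. Without liver litter 4 the difference of Fasn, liver minus lung, was -0.95 and below the size rule, as it was with each array centred on its median (-0.98). With the mean of its probe sets Scd1 was not called (-0.76). Both enzymes feed surfactant lipid as well as storage fat. The elongase Elovl6 was 3.77 higher in liver, and Dgat2, which completes triglyceride, was 2.58 higher.

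**Figure D3:**
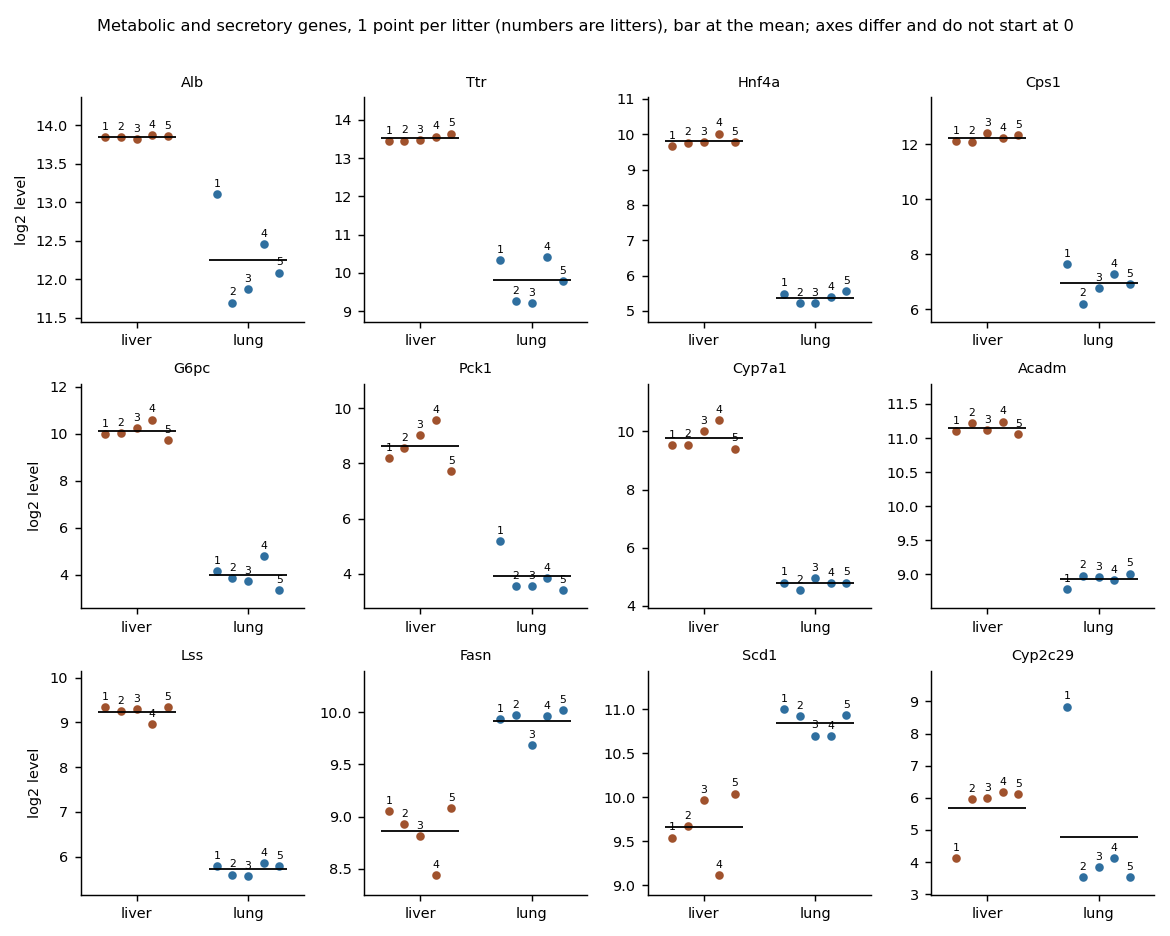
Log2 level of 12 metabolic and secretory genes on each of the 10 arrays, 1 panel per gene, with liver litters 1 to 5 at the left and lung litters 1 to 5 at the right and a bar at each mean. Most panels show a gap between tissues with no overlap, while Fasn and Scd1 lie higher in lung, and Cyp2c29 reads highest in lung litter 1.

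Central carbon genes differed less. Of 17 tested glycolysis genes, 7 were higher in liver and 1 in lung, beside 15.0% and 16.7% among all genes tested. Their median difference was 0.88. The hexose carriers Slc2a1 and Slc2a3 were 1.91 and 2.33 higher in liver, and the lactate carrier Slc16a1 was 2.29 higher. Pkm, the pyruvate kinase of non-liver cells, was 1.17 higher in lung. Of 38 respiratory chain genes, 4 were higher in liver and 0 in lung, a share below the 15.0% among all genes. Their median difference was 0.77 in the liver direction. For 35 of the 38 the tissues did not overlap, with liver higher, beside 34.6% of all genes tested. The number called depends on the scaling: it was 10 with each array centred on its median, 9 with housekeeping genes, 3 after quantile normalization and 2 with hybridization controls. Uqcrq, a subunit of complex III, differed by 1.74, and with the mean of its probe sets it was not called (0.85).

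Growth factor genes were split between the tissues. Of 21 tested genes of the insulin-like growth factor axis and fetal growth, 5 were higher in liver and 8 in lung. Among all genes tested the shares were 15.0% and 16.7%. Igf2, the main fetal growth factor, read 12.41, 12.39, 12.47, 12.21 and 12.23 in liver and 10.74, 10.32, 10.56, 10.77 and 10.75 in lung, a difference of 1.71. Igf1 overlapped, at 8.42 to 8.94 in liver and 8.81 to 9.09 in lung. The receptor Igf1r was 2.02 higher in lung. Binding proteins went both ways. Igfbp1 read 12.62, 12.60, 12.93, 12.99 and 12.53 in liver and 5.63, 6.25, 7.82, 8.70 and 7.03 in lung, and Igfbp2 was 4.47 higher in liver. Igfbp6, Igfbp5 and Igfbp7 were 4.17, 2.39 and 2.0 higher in lung, and with the mean of its probe sets Igfbp7 was not called (liver minus lung -0.73). In lung, Igfbp1 ran from 5.63 in litter 1 to 8.70 in litter 4, so the litter with the most plasma protein message had the least Igfbp1.

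Red cell formation was visible in liver on nearly every gene of the list. Of 26 tested erythroid genes, 22 were higher in liver and 0 in lung, with a median difference of 3.21. Rhag read 10.02, 10.02, 10.03, 9.86 and 10.05 in liver and 2.55, 3.36, 3.58, 3.91 and 3.59 in lung. Hemgn read 11.19, 11.07, 10.98, 11.07 and 11.07 in liver and 3.92, 4.68, 4.79, 5.51 and 5.13 in lung. In both genes lung litter 1 was the lowest lung litter and lung litter 4 the highest. Klf1, the master activator of adult globin genes, differed by 4.90, Cldn13, an erythroblast surface protein, by 5.48, Ermap by 5.26, Kel by 4.67 and the erythropoietin receptor Epor by 2.39. Adult globins are not reported, since their probe sets carried several genes or were dim. The embryonic globin Hbb-y overlapped between tissues, at 6.44 to 7.48 in liver and 5.38 to 7.50 in lung, and Hbb-bh1 was 1.27 higher in liver. The GATA letters lie at -56 to -51 in Kel, at -54 to -49 in Epor and at -43 to -38 in Rhd, as printed above.

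Heme and iron genes showed the same direction. Of 20 tested, 16 were higher in liver and 0 in lung, with a median difference of 2.11. The first enzyme of heme synthesis in red cells, Alas2, was an exception, at 10.73 to 11.07 in liver and 10.30 to 10.85 in lung. Its difference of 0.39 was below the size rule, unlike that of Tfr2 (4.0), which senses transferrin iron, and of the iron exporter Slc40a1 (3.42). Circulating reticulocytes are known to keep Alas2 message, and the part of blood in the lung pieces was not tested. Hamp, the hormone that limits iron release, read 10.23, 9.85, 10.68, 9.23 and 8.94 in liver and 4.47, 3.41, 4.06, 3.70 and 3.36 in lung, and Hjv, its upstream regulator, differed by 3.95. Liver litters 4 and 5 were the lowest for Hamp, as they were for C1s1 and C1ra.

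Granulocyte genes were called in full. All 19 tested were higher in liver, with a median difference of 4.35. Mpo read 11.10, 10.77, 10.98, 11.09 and 10.88 in liver and 4.31, 4.60, 4.95, 5.12 and 4.69 in lung. The azurophil proteases Ctsg, Prtn3 and Elane differed by 5.83, 5.68 and 5.07, and Prg2, of eosinophil granules, by 5.70. Of 16 platelet genes 14 were higher in liver, with a median difference of 2.10: Ppbp and Pf4, stored in platelet granules, differed by 4.49 and 2.69. Cd177, a neutrophil surface protein, read 8.41, 7.87, 8.58, 8.59 and 5.18 in liver, with litter 5 more than 5-fold below the others. Fcnb, a ficolin of granulocytes, read 8.63, 5.47, 7.97, 7.09 and 7.31 in liver, with litter 2 the lowest.

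Macrophage genes were higher in liver for 16 of 21 and higher in lung for 1, with a median difference of 2.18. Genes of the resident liver macrophage led: Cd5l differed by 4.91, Vsig4 by 4.62, Clec4f by 4.01 and Marco by 4.0. The general markers Csf1r and Cd68 differed by 1.44 and 1.34. Lyz2, a lysozyme shared by macrophages and type 2 cells, was the one higher in lung, by 1.04, and without lung litter 3 it fell below the size rule (liver minus lung -0.98), as it did with arrays centred on their median (-0.97) or on housekeeping genes (-0.99). Of 15 tested lymphoid genes, 10 were higher in liver and 0 in lung, led by the B cell precursor genes Vpreb1 (2.62) and Cd79a (2.36). Mast cell genes gave 0 members higher in liver and 2 higher in lung of 4 tested, beside 15.0% and 16.7% among all genes tested. The 2 members were Kit and Hdc, while the granule proteases Cma1 and Mcpt4 read at or below 4.54 in lung. The part of mast cells in the Kit and Hdc values was not tested.

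The stem and progenitor list split. Of 19 genes, 10 were higher in liver and 6 in lung. Gfi1b, Gfi1, Ikzf1 and Cd48 were 3.52, 3.48, 2.99 and 2.51 higher in liver, and Myb was 1.30 higher. Cd34 read 5.16, 5.84, 5.37, 5.54 and 5.47 in liver and 9.85, 9.76, 9.73, 9.95 and 9.78 in lung, 4.34 higher in lung. Kit, Meis1, Gata2, Mecom and Cbfa2t3 were also higher in lung, by 1.76, 2.40, 2.41, 3.48 and 1.07. Cbfa2t3 was not called without lung litter 4 (liver minus lung -0.99). With the mean of its probe sets (-0.74) and after quantile normalization (-0.93) Cbfa2t3 was not called either. Cd34, Gata2 and Mecom are known in endothelium too, and 24 of 27 endothelial genes were higher in lung; the part of endothelium in the progenitor values was not tested.

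Almost every cell cycle gene was higher in liver, though 33 of the 34 measured were above the testing cut on all lung arrays too. Of 33 tested cell cycle genes, 32 were higher in liver and 0 in lung, with a median difference of 1.70. Mki67, the proliferation antigen, read 11.02, 10.82, 10.77, 10.94 and 10.89 in liver and 8.66, 8.90, 8.53, 8.90 and 8.52 in lung. Cdc6 and Rrm2, of DNA replication, differed by 3.36 and 2.73, Gins1 by 2.30, Top2a by 1.38 and Ccnb2 by 1.77. Among the lung litters, litter 3 was the lowest for Cdc6, Rrm2, Gins1, Top2a and Ccnb2. Cdc20, which activates the anaphase ligase, carries CCAAT letters at -53 to -49 and at -8 to -4. In all, 23 of 28 cell cycle windows held them (82.1%).

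On the lung side, both alveolar lists were called in full or nearly so. Of 19 type 2 cell genes, 18 were higher in lung and 0 in liver, beside 16.7% among all genes tested, with a median of 4.29 in the lung direction. Sftpb, which spreads the surfactant film, read 12.03, 11.72, 12.03, 11.97 and 11.79 in lung and 5.82, 5.55, 5.71, 6.0 and 5.81 in liver, a difference of 6.13 (SE 0.095, adjusted p = 2.18e-13). Cxcl15 (lungkine) and Slc34a2, the phosphate carrier of type 2 cells, were 7.49 and 6.73 higher in lung, and Lgi3 and Egfl6 6.38 and 6.32 higher. Sftpd was 4.29 higher. The one member of this list not called was Hc, the fifth complement component, which stands in both lists, at 9.91 to 10.36 in liver and 9.24 to 9.77 in lung. The Sftpb stretch above holds CTCAAG at -100 to -95 and at -15 to -10, letters found in 12.2% of the windows of all genes tested.

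All 18 type 1 cell genes were higher in lung, with a median of 5.09. Ager, the advanced glycation receptor that marks type 1 cells, read 12.68, 12.66, 12.75, 12.85 and 12.71 in lung and 5.86, 5.54, 5.90, 5.68 and 5.04 in liver. Aqp5, a water channel, read 9.28, 9.05, 9.0, 9.07 and 9.32 in lung and 4.22, 4.08, 3.81, 4.29 and 3.92 in liver. The lung litters were within 0.31 of each other for both genes. Limch1, Cldn18, Clic5 and Sec14l3 were 7.14, 6.72, 6.13 and 6.34 higher. Pdpn and Hopx, which are also made outside the lung, were 4.27 and 3.36 higher.

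Airway cells were represented unevenly. Of 11 tested secretory cell genes, 8 were higher in lung and 0 in liver. Scgb3a2 read 12.87, 12.82, 12.94, 12.75 and 12.84 in lung and 5.21, 4.59, 4.36, 8.01 and 4.63 in liver, and Scgb3a1 read 10.27, 10.53, 10.99, 10.37 and 10.49 in lung and 5.07, 4.87, 5.11, 7.55 and 4.82 in liver. Liver litter 4 stood apart on both genes, at 8.01 and 7.55. Cyp2f2, an oxidase of mature club cells, was well above the testing cut in both tissues, at 9.21 to 9.73 in liver and 10.07 to 10.16 in lung. Its difference of 0.53 in the lung direction was below the size rule and does not measure club cell content. Of 24 tested ciliated cell genes, 15 were higher in lung and 1 in liver, with a median of 1.36 in the lung direction. Foxj1, the factor that starts motile cilia, read 5.81, 5.44, 5.70, 5.89 and 5.58 in lung and 4.46, 4.03, 3.89, 4.12 and 4.23 in liver. Tppp3, Lrrc23 and Ccdc39 were 3.38, 2.84 and 2.66 higher in lung, while Dnaic1, a dynein chain, was 1.89 higher in liver. The RFX letters GTTGCC were in 10 of 24 windows of ciliated genes (41.7%), against 10.6% of all genes tested. Neuroendocrine genes were mostly too dim: 3 of 10 were tested, limma called 0 of these, 3 passed the adjusted p alone, and Chga read 3.20 to 3.47 in lung.

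General epithelial genes did not separate the tissues in a simple way. Of 20 tested, 12 were higher in lung and 1 in liver. Krt7 and Krt19, keratins of ducts and airways, were 4.56 and 3.72 higher in lung, the splicing factor Esrp1 3.89 and the transcription factor Elf5 5.51. Krt8 and Krt18, which hepatocytes also make, were not called, at 9.62 to 9.85 in liver and 9.36 to 10.07 in lung for Krt18. Cldn1, a tight junction protein of hepatocytes, was 4.30 higher in liver. The bile duct list gave 2 members higher in liver and 4 in lung of 9 tested, beside 15.0% and 16.7% among all genes tested. Lung epithelium also makes the keratins and Epcam of this list. Within liver, Epcam read 5.38, 6.35, 5.95, 5.26 and 7.11 and Krt19 5.29, 6.79, 6.10, 5.65 and 6.73, with litters 2 and 5 the highest for both.

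Lung transcription factors and signals were called for most members. Of 23 tested factors, 18 were higher in lung and 0 in liver, with a median of 2.09. Nkx2-1, required for lung and surfactant genes, read 6.33, 5.51, 6.23, 6.06 and 5.93 in lung and 3.43, 3.89, 4.31, 3.98 and 3.64 in liver, a difference of 2.16 (SE 0.18, adjusted p = 1.44e-07). The mesenchymal factors Meox2, Tbx2, Tcf21 and Foxf1 were 5.69, 5.44, 4.63 and 3.85 higher. Of 23 tested branching signal genes, 16 were higher in lung and 1 in liver. Shh, secreted by the epithelium, read 10.43, 10.38, 10.27, 10.35 and 10.49 in lung and 4.72, 5.05, 4.46, 4.40 and 4.73 in liver. Hhip, which limits Shh in the mesenchyme, was 4.38 higher, Wnt5a 4.04 and Wnt2 3.14. Fgf10, the bud-inducing factor of earlier stages, was dim and overlapped, at 4.30 to 5.19 in lung and 3.36 to 4.39 in liver. Rspo3, a Wnt enhancer, was the member higher in liver, by 2.52.

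Genes that move salt and water were higher in lung for 9 of 13 tested and higher in liver for 1. The sodium channel subunits Scnn1a, Scnn1b and Scnn1g, which clear lung fluid at birth, were 2.93, 2.22 and 4.11 higher in lung. Scnn1g read 8.38, 8.19, 8.38, 8.56 and 8.40 in lung and 4.53, 4.39, 4.17, 3.83 and 4.44 in liver. Genes of fluid secretion were higher too: Slc12a2, the chloride cotransporter, by 4.70, Cftr by 4.15 and Ano1 by 3.82. Genes of both directions of fluid transport were above liver on the same arrays.

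**Figure D4:**
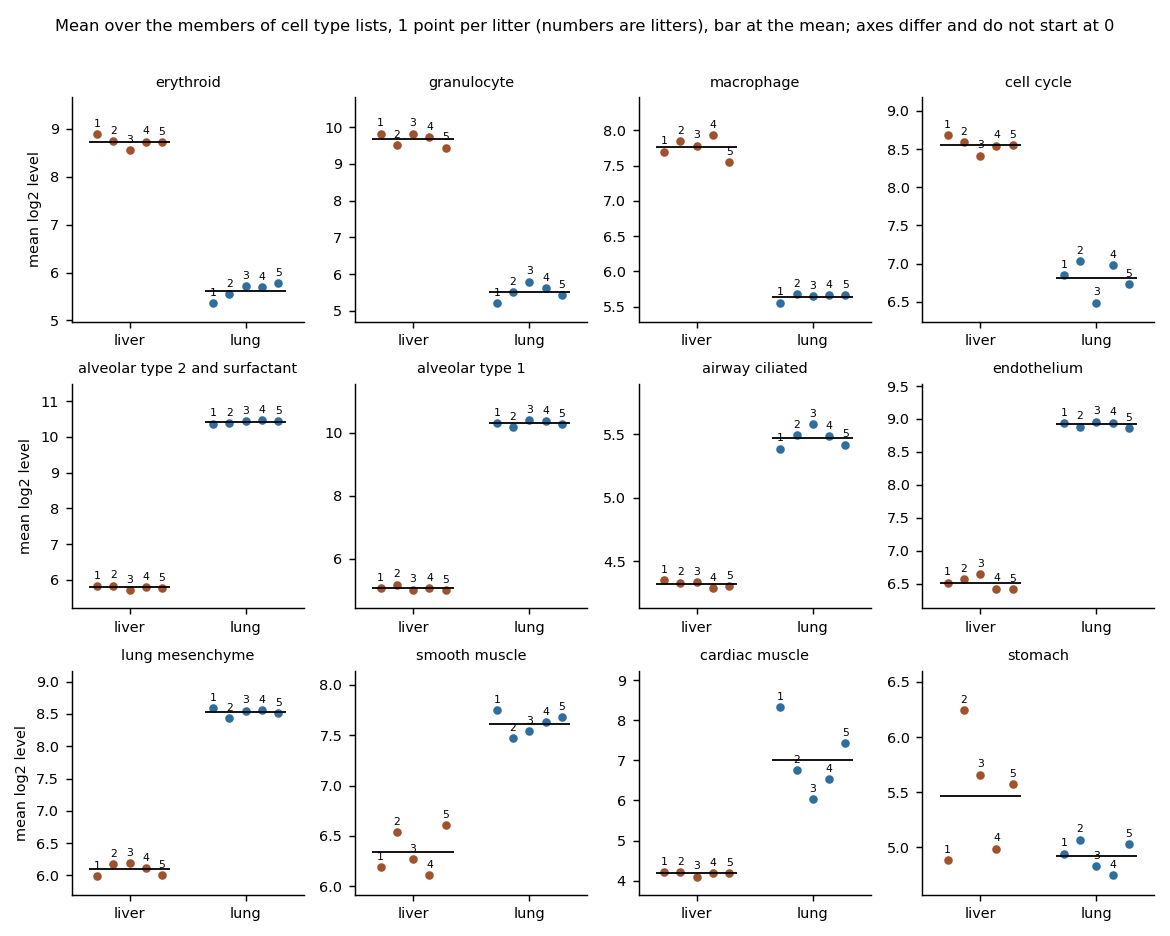
Mean log2 level over the members of 12 cell type lists on each of the 10 arrays, 1 panel per list, with liver litters in the left column of points and lung litters in the right. Blood lists lie higher in liver, alveolar, endothelial and mesenchymal lists lie higher in lung, and the cardiac list is spread among lung litters.

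The supporting tissue of the lung gave large differences over many genes. Of 26 collagen and basement membrane genes, 20 were higher in lung and 1 in liver, with a median of 2.84. Col1a1, of fibrillar collagen, read 11.05, 10.12, 10.41, 10.67 and 10.46 in lung and 7.84, 7.70, 7.58, 6.77 and 7.28 in liver. The basement membrane chains Col4a1 and Col4a5 were 3.14 and 4.34 higher, the laminin Lama3 4.60 and Col6a1 4.58. Col18a1, the collagen that releases endostatin, was 2.44 higher in liver. Of 23 elastic fibre and matrix genes, 18 were higher in lung and 2 in liver. Elastin (Eln) read 12.42, 12.13, 12.25, 12.32 and 12.40 in lung and 7.08, 7.35, 7.50, 7.17 and 7.27 in liver. Lox, which crosslinks elastin and collagen, was 4.40 higher, Ogn 4.68 and Fbn2 3.05. The leucine-rich proteoglycans Dcn and Lum were 1.43 and 1.69 higher in liver. Lung mesenchyme gave 14 of 18 members higher in lung and 2 in liver: Pdgfra, on the precursors of alveolar myofibroblasts, was 3.56 higher, Pdgfrb 3.05 and Scube2 5.01. Smooth muscle gave 12 of 19 higher in lung and 0 in liver, with a median of 1.04. Ppp1r14a and Myocd were 4.13 and 3.0 higher, and Acta2 1.66. With the mean of its probe sets Acta2 was not called (liver minus lung -0.43), nor was Dcn (0.86). Mesothelial genes gave 5 of 9 tested higher in lung, beside 16.7% among all genes tested, with Msln 4.55 higher.

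Vessel genes told the tissues apart by type. Of 27 general endothelial genes, 24 were higher in lung and 0 in liver, with a median of 2.35. Pecam1 read 9.41, 9.23, 9.57, 9.46 and 9.25 in lung and 6.23, 6.35, 6.33, 6.07 and 5.92 in liver. Aplnr, Emcn, Sox17 and Cldn5 were 4.41, 4.27, 4.14 and 3.62 higher. Of 11 tested lung capillary genes, 10 were higher in lung and 1 in liver: Car4, of the alveolar capillary, read 7.07, 7.17, 7.61, 7.17 and 7.03 in lung and 1.85, 3.61, 2.85, 3.37 and 2.71 in liver. The liver sinusoid list gave 7 of 14 higher in liver and 2 in lung, with 5 not called. Among all genes tested the shares were 15.0% and 16.7%, so the count in the lung direction is near that share. Stab2, a scavenger receptor of sinusoidal endothelium, read 8.67, 8.59, 8.99, 8.76 and 8.62 in liver and 5.56, 4.98, 5.53, 5.52 and 5.30 in lung. Clec4g, Oit3 and Dnase1l3 were 3.93, 3.72 and 3.08 higher in liver, and Lyve1, shared with lymphatic vessels, was 1.61 higher in lung. Hepatic stellate genes gave 11 of 16 higher in liver and 3 in lung, the latter again near the 16.7% among all genes tested. Colec11, Reln and Lhx2 were 4.83, 3.38 and 3.23 higher in liver, and Cygb was 1.78 higher in lung.

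Heart muscle genes formed a separate group on the lung arrays. Of 16 tested cardiac genes, 12 were higher in lung and 0 in liver, with a median of 3.60. Myh6, the atrial myosin heavy chain, read 10.99, 9.11, 8.19, 8.75 and 9.90 in lung litters 1 to 5 and 2.82, 2.58, 2.68, 3.23 and 3.30 in liver. Myl7, an atrial light chain, read 11.90, 9.89, 9.17, 10.00 and 10.88 in lung, and Actc1, cardiac actin, read 11.81, 9.88, 9.37, 9.80 and 10.78. Lung litter 1 was the highest for all 3, lung litter 5 the next and lung litter 3 the lowest. Nppa, the atrial natriuretic peptide, read 9.84, 7.61, 3.19, 6.53 and 9.26 in lung and 3.14 to 3.88 in liver. On lung litter 3 it read no higher than on the liver arrays, and it was bright on too few arrays to test. Myl2, a ventricular light chain, read 7.68, 3.45, 3.18, 3.50 and 3.34 in lung, so it was raised on lung litter 1 alone. Myh7, the other cardiac heavy chain, was even, at 7.27 to 7.90 across lung litters. The mean over the 19 cardiac genes was 8.33, 6.75, 6.03, 6.53 and 7.44 in lung litters 1 to 5 and between 4.10 and 4.22 in liver. On the lung arrays of exposed litters it ran from 5.83 to 7.82 at 5 mg/kg/day and from 6.89 to 9.25 at 10 mg/kg/day. The pulmonary veins of mice carry cardiac muscle, and the part of vein or atrium in these values was not tested. Skeletal muscle was at most slight: 2 of 6 tested genes were higher in lung, beside 16.7% among all genes tested. Myh3, the embryonic heavy chain, read 2.57, 2.91, 3.08, 4.45 and 5.67 in lung, with litters 4 and 5 above the rest.

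The 8 hepatocyte lists together held 150 genes called higher in liver, and part of them also read above the testing cut (the 40th percentile of an array) on the lung arrays. In lung litters 1 to 5 that was so for 133, 102, 107, 116 and 111 of the 150, with 97 above it in every lung litter and 12 in none. On the linear scale, their median lung signal was 7.05, 2.86, 3.25, 4.15 and 3.51% of the liver mean in lung litters 1 to 5. The intensities hold the array's own background, so for genes below the cut these percentages are upper limits. The plasma protein list averaged 8.89, 6.99, 7.31, 8.07 and 7.42 on those arrays, against 11.87 to 12.06 in liver. Lung litter 1 was the highest lung litter for 102 of the 150 genes (68.0%), and litter 4 for 21. This share was not counted over all genes. The glucose and glycogen list differed: lung litter 1 was the highest for 1 of its 12 genes and the lowest for 4, and litter 4 was the highest for 6. Hpx, the heme carrier of plasma, read 9.80, 5.19, 5.69, 6.44 and 5.92 in lung and 11.48 to 11.75 in liver. Apoc3, a regulator of plasma triglyceride, read 8.62, 4.35, 5.16, 4.36 and 4.88 in lung and 10.17 to 10.98 in liver. In lung litter 1 both stood more than 8-fold above the other lung litters and still below all liver litters. Haptoglobin (Hp), which lung epithelium also makes, was even in lung, at 10.29 to 10.46.

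On lung litter 1 some genes passed the liver arrays and others stayed low. Serpina6 read 10.94, 3.12, 4.54, 4.76 and 4.15 in lung and 8.02, 8.76, 7.56, 8.83 and 8.42 in liver, so lung litter 1 lay above all 5 liver litters. Cyp2c29, at 8.84 on lung litter 1, was also above every liver litter, the highest of which read 6.18. Afp went the opposite way, with lung litter 1 the lowest lung litter at 8.29. Car3 read 8.88, 6.68, 4.18, 4.77 and 6.45 in lung and 9.65, 9.54, 8.58, 9.05 and 9.72 in liver, and Sult2a2 read 6.56, 2.58, 2.98, 2.85 and 2.79 in lung and 5.08, 5.15, 6.46, 7.31 and 6.87 in liver. Both reached on lung litter 1 a level inside the liver range. Counting all genes, 28 read at least 4-fold higher on lung litter 1 than on any other lung litter, and 27 of these were at least 2-fold higher in liver than in the other lung litters. On the other 9 arrays the same count was 0 to 3. Blood genes did not follow. Of 71 genes from the erythroid, granulocyte, platelet and macrophage lists called higher in liver, lung litter 1 was the highest lung litter for 8 (11.3%) and the lowest for 26. Their median lung signal was 11.04, 11.57, 13.93, 12.43 and 10.88% of liver in lung litters 1 to 5, with 27 of the 71 below the testing cut in at least 1 lung litter.

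**Figure D5:**
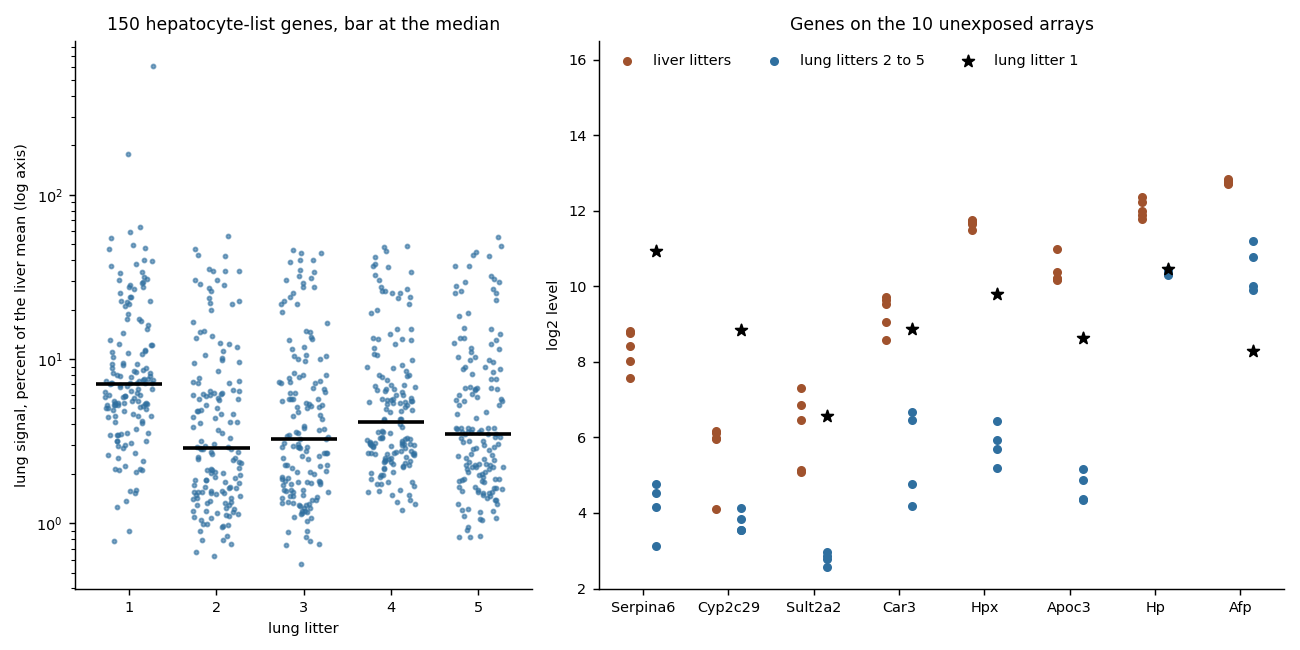
Left: lung signal as a percent of the liver mean (log axis) for the 150 hepatocyte-list genes called higher in liver, per lung litter, with a point per gene and a bar at the median; points of genes below the testing cut are upper limits. Right: log2 level of 8 genes on the 10 arrays, with lung litter 1 marked; Serpina6 and Cyp2c29 on lung litter 1 lie above all liver litters, and Afp lies below the other lung litters.

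Without lung litter 1, 1985 genes were higher in liver and 2246 in lung, and all 25 plasma protein genes stayed called. The call of 1 named gene changed: Cyp2c29 was 1.91 higher in liver without lung litter 1 (adjusted p = 4.86e-04), against 0.89 with it (adjusted p = 0.369). Serpina6 was 4.18 higher in liver without that litter and 2.82 with it, and Orm1 was 2.87 and 2.13. On the lung arrays of exposed litters the plasma protein list averaged 7.35 to 9.05 at 5 mg/kg/day and 6.75 to 7.94 at 10 mg/kg/day. The 9.05, on litter 1 at 5 mg/kg/day, is above the 8.89 of unexposed lung litter 1. Lung litter 1 was also the highest of the unexposed lung litters for the cardiac list. The source of the liver transcripts in lung was not tested.

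Some genes of the stomach, pancreas and intestine varied widely among the liver litters. As lists the stomach and pancreas genes did not stand out in number: of 10 tested stomach genes 2 were higher in liver and 1 in lung and of 8 pancreas genes 2 and 1, beside 15.0% and 16.7% among all genes tested. Of 4 intestine genes 3 were higher in liver and 0 in lung. Cym (chymosin), a milk-clotting protease of the newborn stomach, read 5.05, 11.27, 9.50, 5.28 and 8.20 in liver litters 1 to 5 and 3.67 to 5.50 in lung. Litter 2 was over 64-fold above litter 1, and litters 3 and 5 lay between. Atp4a, of the acid pump, read 4.83, 7.02, 5.48, 4.65 and 4.97 in liver, highest in the same litter 2. Pancreatic genes had another order. Ctrb1 (chymotrypsinogen) read 4.55, 6.46, 6.06, 7.07 and 6.08 in liver and 3.92 to 4.28 in lung, with litter 4 the highest and litter 1 the lowest, and Pnliprp1 read 5.94, 7.01, 6.50, 7.76 and 6.80. Lgals4, an intestinal lectin, read 6.43, 6.58, 6.79, 6.50 and 8.32, with litter 5 the highest. The smooth muscle gene Actg2 read 5.15, 6.80, 6.04, 4.92 and 7.31 in liver, where litters 5 and 2 were the highest as they were for Epcam and Krt19. Liver litter 1 was at or next to the lowest for Cym, Ctrb1, Pnliprp1, Lgals4 and Epcam. Cym was 3.46 higher in liver (adjusted p = 0.00743, limma). With liver litters 1 and 4 alone, Cym, Atp4a and Lgals4 were not called, at differences of 0.76, 0.96 and 0.91. Actg2 was 1.0 higher in lung and not called. It was called without liver litter 2, liver litter 5 or lung litter 2 (liver minus lung -1.19, -1.32 and -1.09), with arrays centred on hybridization controls (-1.17) and with liver litters 1 and 4 alone (-2.01). The stomach list averaged 4.89 to 6.24 in the unexposed liver litters and 4.87 to 5.14 in the exposed ones. The part of neighbouring organs in these values was not tested. Of 7 tested cartilage genes and 4 tested nerve genes 1 each was higher in lung, beside the 16.7% among all genes tested. For adrenal genes 2 of 4 were higher in liver, beside 15.0% among all genes tested.

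Sex-linked transcripts varied between litters more than between tissues. Xist, expressed from the inactive X of females, read 5.82, 8.77, 9.76, 10.28 and 9.58 in liver and 5.38, 9.20, 10.22, 10.75 and 10.24 in lung. Eif2s3y, on the Y, read 7.05, 6.63, 5.33, 1.54 and 6.82 in liver and 7.06, 6.80, 5.65, 1.44 and 6.54 in lung. Kdm5d, also on the Y, read 6.49, 5.98, 4.73, 2.44 and 5.94 in liver and 6.69, 6.03, 5.33, 1.79 and 5.86 in lung. In both tissues the array numbered 1 was low for Xist and the array numbered 4 was lowest for the Y genes, and same-numbered arrays of the tissues differed by at most 0.66 for Xist and 0.32 for Eif2s3y. These genes made up part of the 10 with the largest spread within each tissue, and no difference between tissues is given for them.

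The same contrast was read on the exposed arrays, which are other litters. At 5 mg/kg/day 2018 genes (15.1% of 13323) were higher in liver and 2253 (16.9%) in lung, and at 10 mg/kg/day 1947 (14.6% of 13337) and 2323 (17.4%). Of the 1989 genes higher in liver in unexposed litters, 1705 (85.7%) were called in the same direction at both doses. Of the 2227 higher in lung, 1991 (89.4%) were. The opposite call at either dose was made for 0 of the first and 1 of the second, Acot2. Acot2 was 1.32 higher in lung in unexposed litters and was higher in liver by 1.18 at 5 mg/kg/day and by 1.79 at 10 mg/kg/day. Between unexposed and exposed litters its tissue difference changed by 2.50 and 3.11 (adjusted p = 1.29e-08 and 1.33e-10, limma interaction). For 3 identity genes the change did not pass the test (adjusted p = 0.858 for Alb, 0.83 for Hnf4a and 0.69 for Sftpc at 10 mg/kg/day). Alb differed by 1.60, 1.53 and 1.78 at 0, 5 and 10 mg/kg/day, Hnf4a by 4.42, 4.22 and 4.33, and Sftpc, in the lung direction, by 8.40, 8.72 and 8.86. Alb in liver and Sftpc in lung are near the top of the scale, where a change in that tissue could hardly be read, so their values say little about dose.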

How the data were processed

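Fetal liver and lung RNA was measured on Affymetrix mouse 430_2 arrays, 1 array per litter and tissue, and the 10 unexposed arrays of 30 were compared by their labels. The deposited values are log2 intensities, which the submitters' processing notes credit to RMA; its version and settings were not given in the sources used here. Of 45101 probe sets, 64 were controls, 34945 had 1 gene symbol in GEO's annotation, 932 several and 9160 none, and only the first kind named genes. Each of 18193 genes was read from the brightest of its probe sets, by the mean of the 30 arrays. A gene was tested where that probe set was above the 40th percentile of its array on at least 5 of the 10 arrays.

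Liver and lung means were compared with limma 3.58.1 in R 4.3.3 (lmFit and eBayes on the 10 arrays, no covariates), and p-values were adjusted with Benjamini-Hochberg over all 13303 genes. A call needed an adjusted p under 0.05 and a log2 difference of at least 1. The fit was tested on simulated data. The number of arrays limits the precision. The labels do not say whether the litters of a tissue were handled separately after pooling, and the p-values measure only the spread between these arrays.

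The members and gene lists were chosen with earlier results of these data known, and lists are given by counts and medians beside all genes tested. Named genes were the 20 largest calls in each direction, each list's first 4 members, up to 4 calls per list and direction, calls against a list's known tissue, and the 10 genes with the largest spread per tissue. Named outside this rule, after their values or sequences were seen, were Actg2, C1ra, C1s1, Cdc20, Epor, Fga, Foxa2, Hc, Hp, Kel, Klf1, Myh7, Myl2 and Rhd. The orders of litters within a tissue were also noticed in the values. Promoter windows are the 250 bases before the start in RefSeq's table (GRCm38.p6), 1 window per gene, found for 10721 of the genes tested; no motif searched contains another. Some genes are not reported here. Alternatives covered scaling, filters, probe sets per gene, variance models, call rules, a replicate block and leaving out litters. Figures were drawn with matplotlib 3.10.9.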

Additional observations from a re-analysis of the deposited data

Results flagged for a closer look

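Among the 272 genes named, each of the 2 tissue groups of 5 litters was checked for 1 litter standing apart (a gap of more than 0.71 of the range to the nearest litter). This was met in 44 of 544 groups (8.09%). The rate of about 1 in 20 for independent groups is no yardstick here. Some of the genes were named for their large spread or after their values were seen, and all groups come from the same arrays. In 14 of the 44 lung litter 1 was the highest. Among genes of liver they were Apoc3 at 8.62, Bhmt at 8.96, Clec4g at 4.71, Cyp2c29 at 8.84, F9 at 4.89, Hpx at 9.80, Orm1 at 6.57, Pck1 at 5.18, Serpina6 at 10.94, Slc27a5 at 5.69, Sult2a2 at 6.56 and Ugt2b5 at 5.17. The other genes on that litter were Myl2 at 7.68, Igfbp7 at 10.83, Sec14l3 at 10.38, Slc12a2 at 11.01 and Xist at 5.38, of which some were the lowest of their group. On the other lung litters C6 read 7.73, Car4 7.61, Fasn 9.68 and Myh7 7.27 on litter 3, Hopx 11.93 on litter 2, Meox2 8.42 and Sftpa1 11.30 on litter 5, and Eif2s3y 1.44, Kdm5d 1.79 and Igf1 9.09 on litter 4.

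In liver, litter 4 stood apart for the airway secretory genes Scgb3a1 at 7.55 and Scgb3a2 at 8.01, and for Foxf1 at 4.84, Lhx2 at 5.25, Lss at 8.97, Rhag at 9.86 and Slc2a1 at 10.02. Liver litter 5 stood apart for Cd177 at 5.18, Itih2 at 11.65, Lgals4 at 8.32 and Scube2 at 3.21, and litter 3 for Apoc3 at 10.98, Cyp8b1 at 9.98 and Fetub at 11.12. Liver litter 1 stood apart for Cyp2c29 at 4.11 and Hdc at 5.72, and litter 2 for Scnn1b at 3.42.

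List means stood apart in 6 of 110 groups. Lung litter 1 was apart for amino acid catabolism at 5.79, bile acid synthesis and transport at 5.21, drug metabolism at 5.65 and adrenal genes at 3.88. Liver litter 1 was apart for drug metabolism at 8.15 and lung transcription factors at 4.81.

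The tissue difference changed with exposure for 11 of the named genes (limma interaction of tissue and dose, adjusted over 13886 genes, of which 285 passed at the lower dose and 537 at the higher). Liver minus lung was larger than in unexposed litters for Acot2 by 2.50 and 3.11 at 5 and 10 mg/kg/day, for Acacb by 1.02 and 0.98, and for Tbx3 by 0.87 and 0.94. The same direction held for the cholesterol genes Hsd17b7 by 0.92 and 0.76, Lss by 0.77 and 0.92 and Hmgcs1 by 0.60 at 5 mg/kg/day alone, and for Mttp by 0.73 at 10 mg/kg/day alone. It moved the other way for Col4a5, with a change of -1.0 and -0.86, for Cyp2f2 with -1.07 and -1.50, for Oxct1 with -0.43 and -0.64 and for Krt19 with -0.93 at 10 mg/kg/day alone. The unexposed arrays enter each of these tests, so the 2 doses share their control litters.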

How the results depend on the processing

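Over the alternatives that changed 1 choice at a time, 229 of the 249 called genes named here had the same call wherever they were tested, and 0 of them changed direction. Leaving out each litter in turn gave 1957 to 2011 genes higher in liver and 2194 to 2249 higher in lung, 664 to 672 called list members against 669, and 247 to 250 called named genes. The mean over lung litters of the median signal of hepatocyte genes, 4.16% of liver (SD 1.68 over 5 litters, an upper limit where genes read below the testing cut), was 3.44 to 4.49% without single lung litters. With every probe set as its own feature, 3400 and 4858 of 28238 were called higher in liver and in lung. With the adjusted p alone, 5449 and 5395 genes passed, 5502 and 5467 at 5 mg/kg/day, and 5428 and 5520 at 10 mg/kg/day. Centring on hybridization controls shifted the median of all genes by -0.17 and gave 1671 and 2698 calls, 38.2% of them higher in liver against 47.2%. With the test against a 2-fold null, Ass1, Atp4a, Cbfa2t3, Cd68, Cdc20, Cym, Dcn, Fasn, Hbb-bh1, Lgals4, Lyz2, Orm1, Pkm, Pnliprp1, Scd1, Serpina6 and Sult2a2 were no longer called (adjusted p from 0.053 for Cd68 to 1.0 for Fasn and Lyz2). With the mean of probe sets, Acta2, Cbfa2t3, Dcn, Igfbp7, Scd1 and Uqcrq were not. Centring on hybridization controls ended the call of Cdc20 (0.96) and gave one to Fgf10 (-1.01). Foxa2, which was not called, turned to 0.00 with arrays centred on their median and after quantile normalization, and Igf1 turned to 0.52 with the mean of its probe sets, where the other probe sets differ. With the replicate number as a block, 1989 and 2227 genes, 669 list members and 249 named genes were called. The main fit did not pair the tissues by number, since the labels do not state a shared litter. Same-numbered arrays had correlated deviations of 0.0755 to 0.142, of which 2 were under 0.1. Each liver array correlated best with its own number, but lung array 2 correlated slightly better with liver array 5 (0.079) than with liver array 2 (0.0755). For the sex-linked genes named here the largest gap between same-numbered arrays was 0.66 for Xist, 0.65 for Kdm5d and 0.32 for Eif2s3y. Whether same-numbered arrays share a litter was not tested. Alternatives chosen after seeing the data were liver litters 1 and 4 alone (2004 and 2260 calls, sharing 97.3% and 96.8% of the calls) and lung litters 2 to 4 alone (1987 and 2274). The share of HNF1 letters was 4.59% (Wilson 95% interval 2.89 to 7.23, counting error only) and 4.36 to 4.57% under the alternatives. Genes near the top of the scale and dim genes limit what a difference can show.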
